A study of Mus musculus with 8 samples.

Results

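The genes described here are 33 genes of glycolysis and of the response to low oxygen, chosen by name and represented on the arrays by their annotated probes. A probe was kept if both arrays of some group had a detection p-value below 0.05, which is how the deposited files score a signal above background. Each gene was read from its probe with the highest mean intensity. By this rule 28 of the 33 genes were measured, among 8733 genes in all. They comprised 19 genes of sugar transport and glycolysis and 9 genes of the hypoxia response, and 4 of them (Hk2, Tpi1, Gapdh and Eno2) lie on chromosome 6. No tested probe carried the names Gpi1, Eno1, Ldhb, Bnip3 or Ankrd37, which were not analysed here. Of the 28 measured genes, 24 were detected on all 8 arrays. Pfkfb3 was detected on 0 of the 2 Igf2-labelled arrays and on 1 parthenogenetic array, and Slc16a3, Egln1 and Higd1a were each detected on 1 of the 2 normal arrays.

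Glycolysis converts glucose to pyruvate in the cytosol, and lactate dehydrogenase and a lactate exporter then dispose of the pyruvate that does not enter mitochondria. Many glycolytic genes, together with genes of angiogenesis and of oxygen sensing, are induced by hypoxia-inducible factors (HIFs), transcription factors whose alpha subunits are hydroxylated by the EGLN enzymes and degraded when oxygen is plentiful. Egln1 and Egln3 are themselves HIF targets. Mouse embryonic stem (ES) cells are known for a high glycolytic activity, which changes with their pluripotent state.

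Total RNA of mouse ES cells of the B6D2F1 hybrid strain was amplified, labelled with biotin and measured on Illumina bead arrays, 2 arrays in each of 4 groups. The Igf2-labelled cells are genetically modified parthenogenetic ES cells said to overexpress Igf2, which encodes a growth factor and is normally active on the paternal chromosome only. The H19-labelled cells are genetically modified parthenogenetic ES cells said to have lowered H19, a noncoding RNA gene next to Igf2 that is normally active on the maternal chromosome only. The unmodified parthenogenetic ES cells derive from oocytes and carry maternal genomes only, and the normal ES cells derive from embryos. The cells of the Igf2-labelled and H19-labelled groups therefore share the parthenogenetic origin of the cells they are compared with. The sources used here do not give the construct, its promoter or the number of clones. The design speaks of biological replication without saying that the 2 arrays of a group came from separate cultures, so the p-values measure only the spread between these arrays.

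Values are log2 intensities after background correction and quantile normalization, and changes are differences of their group means. Groups are said not to overlap where both arrays of a group lie above, or both below, both arrays of the other group. With 2 arrays a group this is a description and adds no support to a call. How often it occurs over all genes is not given. Igf2 itself stood at 15.61 and 15.49 on the Igf2-labelled arrays, against 15.58 and 15.62 on the parthenogenetic arrays (change -0.05, adjusted p = 0.723). It was 14.98 and 14.94 on the H19-labelled arrays (change -0.64 against parthenogenetic cells, adjusted p = 0.00184 in limma) and 15.62 and 13.63 on the normal arrays. Which cells gave the Igf2 signal was not tested. A rise of Igf2 was not seen on the Igf2-labelled arrays, but its probe read 50496 and 42088 units there, against 48301 and 50505 units on the parthenogenetic arrays, and was brighter than 99.4% to 99.5% of the tested probes on these 4 arrays. The brightest probe read 65152 to 67905 units on these arrays, and the Igf2 probe read 54664 units on normal replicate 1. Whether a rise could show at this level was not tested, so the probe does not check the Igf2 label. The name H19 was carried by 0 probes, so the H19 label was not checked either. Replicate arrays correlated at 0.995 to 0.996 across probes in 3 groups and at 0.961 in the normal group. Pluripotency markers were detected on all 8 arrays for 17 of 17 measured genes. Markers of fibroblasts, which are often used as feeder cells, were detected on all 8 arrays for 27 of 28 genes. Their mean log2 intensity was 11.39 and 11.43 on the Igf2-labelled arrays, 10.81 and 10.82 on the H19-labelled arrays, 11.60 and 11.62 on the parthenogenetic arrays, and 11.67 and 10.25 on the normal arrays. Normal replicate 2 stands apart from normal replicate 1, and each comparison with normal ES cells is given with and without it. In such bulk RNA, fewer cells of a type and less RNA per cell cannot be told apart.

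The promoters of 6 genes are shown because they belong to the changes described next: Egln1, Egln3, P4ha2 and Adm were lower on the Igf2-labelled arrays, and Hk2 and Pfkp were higher on the arrays of both modified lines. Each sequence is the 250 bases before the start of the gene in the RefSeq annotation of GRCm38.p6, written 5′ to 3′ on the strand of the gene. Capitals mark ACGTG and GCGTG on either strand, the core letters of the HIF response element. The windows are chr8:124949255-124949504 (minus strand) for Egln1, chr12:54203875-54204124 (minus) for Egln3, chr11:54100674-54100923 (plus) for P4ha2, chr7:110627407-110627656 (plus) for Adm, chr6:82774455-82774704 (minus) for Hk2 and chr13:6648772-6649021 (minus) for Pfkp.
Egln1: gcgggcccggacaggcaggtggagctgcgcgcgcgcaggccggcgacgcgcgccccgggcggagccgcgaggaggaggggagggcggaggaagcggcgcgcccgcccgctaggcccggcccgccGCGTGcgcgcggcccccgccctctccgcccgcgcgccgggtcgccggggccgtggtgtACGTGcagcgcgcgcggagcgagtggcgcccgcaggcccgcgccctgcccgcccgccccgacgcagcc
Egln3: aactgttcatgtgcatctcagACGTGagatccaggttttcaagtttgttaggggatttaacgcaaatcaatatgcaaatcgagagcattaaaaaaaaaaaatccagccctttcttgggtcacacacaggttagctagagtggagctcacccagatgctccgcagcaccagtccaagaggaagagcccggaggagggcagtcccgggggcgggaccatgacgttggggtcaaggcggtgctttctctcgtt
P4ha2: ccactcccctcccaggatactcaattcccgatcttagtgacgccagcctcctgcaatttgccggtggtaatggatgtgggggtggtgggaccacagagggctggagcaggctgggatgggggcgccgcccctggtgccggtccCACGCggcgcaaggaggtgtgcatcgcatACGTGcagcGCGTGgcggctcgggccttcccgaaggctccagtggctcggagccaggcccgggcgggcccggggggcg
Adm: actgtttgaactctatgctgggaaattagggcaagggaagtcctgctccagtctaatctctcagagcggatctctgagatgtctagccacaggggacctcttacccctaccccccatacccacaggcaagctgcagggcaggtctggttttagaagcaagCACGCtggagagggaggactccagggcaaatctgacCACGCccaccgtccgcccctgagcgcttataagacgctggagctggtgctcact
Hk2: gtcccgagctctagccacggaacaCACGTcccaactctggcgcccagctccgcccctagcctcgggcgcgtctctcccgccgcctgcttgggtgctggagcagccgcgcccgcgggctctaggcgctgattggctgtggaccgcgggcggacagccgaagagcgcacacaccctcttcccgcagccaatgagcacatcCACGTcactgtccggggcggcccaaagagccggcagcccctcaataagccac
Pfkp: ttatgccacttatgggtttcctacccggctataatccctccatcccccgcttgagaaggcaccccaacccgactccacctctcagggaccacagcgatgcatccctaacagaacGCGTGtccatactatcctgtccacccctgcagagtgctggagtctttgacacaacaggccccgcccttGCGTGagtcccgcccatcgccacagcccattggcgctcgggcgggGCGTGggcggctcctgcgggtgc
The Egln1 window holds 1 ACGTG and 1 GCGTG, the Hk2 window holds 2 ACGTG and 0 GCGTG, and the Pfkp window holds 0 ACGTG and 3 GCGTG. Each window shown holds a match, but they are a choice among the called genes. The window of Eno2, which was also higher on the arrays of both modified lines, holds 0 matches and is not shown. Aldoc, Pdk1 and Pfkm, lower on the Igf2-labelled arrays, are not shown either. Pdk1 and Pfkm each have windows with and without a match. Of the 27 measured genes with a promoter in the table, 25 (92.6%) had at least 1 match in at least 1 promoter, against 62% of 7106 tested genes and 41.5% of all 27025 genes with an entry. The median number of CG dinucleotides, which both motifs contain, was 13 in the promoters of the measured genes, 15 in those of tested genes and 6 in all promoters. A match is a description of the letters, not a binding site, and the genes had been chosen partly as known HIF targets.

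**Figure D1:**
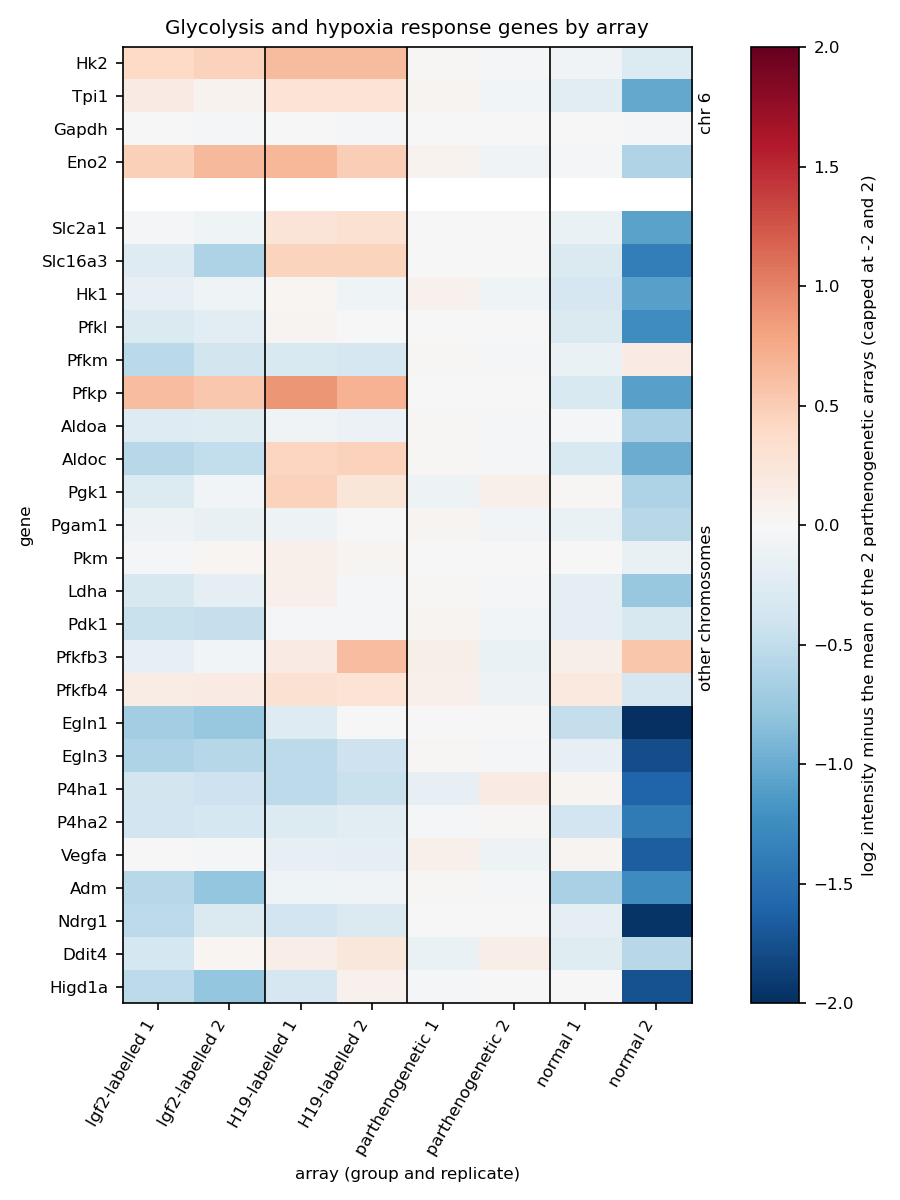
Log2 intensity of each of the 28 genes (rows) on each array (columns), as the difference from the mean of the parthenogenetic arrays; red is higher and blue lower, and the colour is capped at -2 and 2. Rows of Hk2 and Pfkp are red on the arrays of both modified lines, rows of the hypoxia response genes are mostly blue on the Igf2-labelled arrays, and normal replicate 2 is the lowest array for 24 of the 28 genes.

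The first comparison asks how the cells labelled as overexpressing Igf2 differ from the parthenogenetic cells they were made of. In the Igf2-labelled cells 4 genes of the hypoxia response (the oxygen sensors Egln1 and Egln3, the collagen hydroxylase P4ha2 and the peptide gene Adm) fell by 0.37 to 0.72 on the log2 scale. Among glycolytic genes 3 rose and 3 fell, with phosphofructokinase genes on both sides. Of these rises, those of Hk2 and Eno2 were on chromosome 6. In the limma fit with Benjamini-Hochberg adjustment over all 12932 probes, 10 of the 28 genes passed an adjusted p of 0.05, 3 of them higher and 7 lower. That is 35.7% of the set, where 9.73% of all genes passed, 5.43% higher and 4.31% lower. Off chromosome 6, 1 of 24 genes was higher (4.17%, beside 3.58% of all genes there) and 7 were lower (29.2%, beside 4.48%).

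Egln1 encodes the main oxygen-sensing prolyl hydroxylase that marks HIF alpha subunits for degradation. Its log2 intensity was 7.87 and 7.81 on the Igf2-labelled arrays, against 8.57 and 8.56 on the parthenogenetic arrays. The groups did not overlap, and Egln1 fell by 0.72 (SE 0.10, adjusted p = 0.0118), 1.65-fold lower. The other probes of Egln1 differed from it and from each other, at -0.54 (adjusted p = 0.0466) and 0.0031 (adjusted p = 0.994). Egln3 encodes a related hydroxylase that is strongly induced by hypoxia. It stood at 11.68 and 11.73 on the Igf2-labelled arrays, against 12.33 and 12.28 on the parthenogenetic arrays, and fell by 0.60 (SE 0.08, adjusted p = 0.00873). Both Igf2-labelled arrays were below both parthenogenetic arrays, and its dimmer probe changed by -0.37 without passing (adjusted p = 0.412).

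Adm encodes adrenomedullin, a secreted vasodilator peptide. It was 9.16 and 8.93 in Igf2-labelled cells, against 9.73 and 9.69 in parthenogenetic cells, a fall of 1.59-fold (log2 change -0.67, SE 0.09, adjusted p = 0.0126). P4ha2, a catalytic subunit of the enzyme that hydroxylates proline in collagen, was 10.70 and 10.72 in Igf2-labelled cells, against 11.06 and 11.10 in parthenogenetic cells (log2 change -0.37, adjusted p = 0.0279). In Adm and P4ha2 the groups did not overlap. P4ha1, which encodes the alternative catalytic subunit, changed by -0.39 and missed the threshold (adjusted p = 0.0874). Ndrg1, a stress-responsive gene induced by hypoxia, changed by -0.40 (adjusted p = 0.0529), and Higd1a, a mitochondrial protein gene of the hypoxia response, by -0.64 (adjusted p = 0.0554). Vegfa, the main angiogenic growth factor gene, was 12.29 and 12.27 in Igf2-labelled cells, against 12.39 and 12.20 in parthenogenetic cells. These groups overlapped and the change was -0.011 (adjusted p = 0.954). Ddit4, an inhibitor of mTOR signalling induced by stress, changed by -0.16 (adjusted p = 0.566). The 9 hypoxia response genes had a median change of -0.40, beside a median of -0.014 over all genes. Past the threshold 0 were higher and 4 lower (44.4%, beside 4.31% of all genes lower).

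Pfkp encodes the platelet form of phosphofructokinase, the enzyme of the committed step of glycolysis. Its log2 intensity was 13.12 and 13.04 on the Igf2-labelled arrays, against 12.52 and 12.50 on the parthenogenetic arrays, and it rose by 0.57 (SE 0.09, adjusted p = 0.0163). The dimmer Pfkp probe was 0.36 higher and missed the threshold (adjusted p = 0.0728). The muscle form of the same enzyme moved the other way: Pfkm was 10.96 and 11.13 in Igf2-labelled cells, against 11.52 and 11.48 in parthenogenetic cells, and fell by 0.46 (adjusted p = 0.0246). Of its dimmer probes, 1 fell by 0.41 (adjusted p = 0.0294) and the other changed by -0.33 without passing (adjusted p = 0.0821). The liver form, Pfkl, changed by -0.26 without passing (adjusted p = 0.0761). Among the phosphofructokinase genes, therefore, 1 rose, 1 fell and 1 did not pass.

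Aldoc, the brain-enriched aldolase, was 9.90 and 9.96 in Igf2-labelled cells, against 10.47 and 10.42 in parthenogenetic cells, and fell by 0.52 (SE 0.07, adjusted p = 0.0112). The ubiquitous aldolase Aldoa changed by -0.25 and did not pass (adjusted p = 0.0834). Pdk1 encodes a kinase that inhibits pyruvate dehydrogenase and so limits the entry of pyruvate into mitochondria. It was 11.88 and 11.87 in Igf2-labelled cells, against 12.38 and 12.27 in parthenogenetic cells, and fell by 0.45 (adjusted p = 0.0183). In Aldoc and Pdk1 the groups did not overlap. The glucose transporter gene Slc2a1 changed by -0.06 (adjusted p = 0.668), the lactate exporter gene Slc16a3 by -0.44 (adjusted p = 0.0815) and the lactate dehydrogenase gene Ldha by -0.25 (adjusted p = 0.116). The other glycolytic and regulatory genes off chromosome 6 that did not pass (Hk1, Pgk1, Pgam1, Pkm and Pfkfb4) changed by -0.17 to 0.16, and for Pfkfb3 no change is given because it was not detected in Igf2-labelled cells.

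These calls rest on few arrays. Without Igf2-labelled replicate 1, 2 genes passed (7.14%, beside 3% of all probes), and without Igf2-labelled replicate 2, parthenogenetic replicate 1 or parthenogenetic replicate 2, 0 did, beside 2.04% to 2.44% of all probes. With the normal arrays in the fit, 0 genes and 0.541% of all probes passed, since the spread of the normal pair then enters every comparison. Over the alternative settings and left-out arrays Egln3 changed by -0.62 to -0.48 and Pfkp by 0.47 to 0.61. Of 28 fibroblast markers 25 were lower, where 46.9% of all genes were higher, and their median was -0.22, beside -0.014 over all genes. Only 3 passed the threshold, all lower (10.7%, beside 9.73% of all genes, 4.31% lower). Their part in the result was not tested.

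The next comparison asks how the cells labelled as having lowered H19 differ from parthenogenetic ES cells. It shares its parthenogenetic arrays with the comparison above, so the changes of the modified lines are not independent of each other. In H19-labelled cells the transporter genes Slc2a1 and Slc16a3, the enzyme genes Hk2, Pfkp, Aldoc, Tpi1 and Eno2 and the regulator Pfkfb4 rose, and Pfkm, Egln3, P4ha1, P4ha2 and Ndrg1 fell. Of the 28 genes, 13 passed the threshold, 8 higher and 5 lower. This is 46.4% of the set (28.6% higher, 17.9% lower), beside 33.8% of all genes (15.6% higher, 18.2% lower). Off chromosome 6, 10 of 24 genes passed (41.7%), beside 31.9% of all genes there. Of those 24, 5 were higher (20.8%, beside 13.4%) and 5 lower (20.8%, beside 18.6%).

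Slc2a1 encodes the glucose transporter of most cell types. It stood at 14.61 and 14.66 on the H19-labelled arrays, against 14.36 and 14.34 on the parthenogenetic arrays, and rose by 0.28 (SE 0.07, adjusted p = 0.0277). Slc16a3, which exports lactate, was 8.13 and 8.13 in H19-labelled cells, against 7.69 and 7.68 in parthenogenetic cells, and rose by 0.44 (SE 0.12, adjusted p = 0.0364). Its only tested probe was dim, at 166.4 to 378.9 units across the arrays. Both transporters measured in the set were thus higher in H19-labelled cells. Pfkp was 13.39 and 13.20 in H19-labelled cells, against 12.52 and 12.50 in parthenogenetic cells, a rise of 1.72-fold (log2 change 0.78, SE 0.09, adjusted p = 0.00154). Its dimmer probe rose by 0.58 (adjusted p = 0.00615).

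Aldoc was 10.88 and 10.91 in H19-labelled cells, against 10.47 and 10.42 in parthenogenetic cells, and rose by 0.45 (SE 0.07, adjusted p = 0.00482). Pfkfb4, a kinase and phosphatase that sets the level of a sugar bisphosphate that activates phosphofructokinase, was 8.71 and 8.68 in H19-labelled cells, against 8.50 and 8.30 in parthenogenetic cells. Its rise of 0.29 lay just inside the threshold (adjusted p = 0.046), and the call was kept in 6 of 12 alternative settings. Pfkm fell here too, at 11.19 and 11.16 in H19-labelled cells, against 11.52 and 11.48 in parthenogenetic cells (log2 change -0.32, adjusted p = 0.0279). Of its dimmer probes, 1 fell by 0.29 (adjusted p = 0.0373) and the other changed by -0.14 without passing (adjusted p = 0.303). Pgk1, which makes the first ATP of the pathway, changed by 0.35 without passing (adjusted p = 0.0766). Ldha changed by 0.04, Pkm by 0.08, Pfkl by 0.04 and Aldoa by -0.10, and none of them passed (adjusted p 0.319 to 0.746). Hk1 changed by -0.019, Pgam1 by -0.06 and Pfkfb3 by 0.39 without passing (adjusted p 0.116 to 0.891). Pdk1 was 12.30 and 12.28 in H19-labelled cells, against 12.38 and 12.27 in parthenogenetic cells, groups that overlapped (adjusted p = 0.743).

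Of the hypoxia response genes, Egln3 was 11.78 and 11.89 in H19-labelled cells, against 12.33 and 12.28 in parthenogenetic cells, and fell by 0.47 (SE 0.08, adjusted p = 0.00528), while its dimmer probe changed by -0.24 without passing (adjusted p = 0.492). P4ha1 was 8.52 and 8.60 in H19-labelled cells, against 8.89 and 9.21 in parthenogenetic cells, and fell by 0.49 (SE 0.11, adjusted p = 0.02). P4ha2 was 10.81 and 10.87 in H19-labelled cells, against 11.06 and 11.10 in parthenogenetic cells, and fell by 0.24 (adjusted p = 0.0459). Both collagen hydroxylase subunit genes were thus lower, but the P4ha2 call was kept in only 8 of 12 alternative settings. Ndrg1 was 11.54 and 11.64 in H19-labelled cells, against 11.93 and 11.92 in parthenogenetic cells, and fell by 0.34 (adjusted p = 0.0382), and its dimmer probe fell by 0.37 (adjusted p = 0.0109). Egln1 changed by -0.12 (adjusted p = 0.399) and Adm by -0.07 (adjusted p = 0.599). Vegfa changed by -0.17, Higd1a by -0.12 and Ddit4 by 0.18, and none of these passed (adjusted p 0.181 to 0.593). The 9 hypoxia response genes had 0 higher and 4 lower past the threshold (44.4%, beside 18.2% of all genes lower). Their median was -0.17, beside a median of 0.015 over all genes. Over the whole set of 28 genes the share lower was 17.9%, near that of all genes.

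The count of 13 was 6 without H19-labelled replicate 1, 5 without H19-labelled replicate 2, 7 without parthenogenetic replicate 1 and 5 without parthenogenetic replicate 2. These are 17.9% to 25% of the 28 genes, in fits in which 21.6% to 22.6% of all probes passed. With the normal arrays in the fit it was 1 (3.57%, beside 4.35% of all probes). Hk2, Pfkp, Aldoc, Eno2 and Egln3 each passed in 6 of 6 fits that left out 1 array. The other calls were each lost in some of these fits, and those of Tpi1 and P4ha2 in all of them. Of the 28 fibroblast markers 27 fell in this comparison (96.4%, beside 18.2% of all genes), with a median of -0.83. Of 6 neural markers 4 fell (66.7%), with a median of -0.74. Of 17 pluripotency markers 8 rose and 1 fell (52.9%, beside 33.8% of all genes called either way), with a median of 0.23. The part of these markers in the changes was not tested.

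The modified lines were then compared with each other, on arrays of which neither group is a control. The arrays are those of the comparisons above, so the differences are not independent of them. A rise here means higher in H19-labelled than in Igf2-labelled cells. Here 8 of the 28 genes passed, 28.6% of the set beside 21.5% of all genes, and 8 were higher and 0 lower in H19-labelled cells, where 8.47% of all genes were higher and 13% lower. Aldoc had the largest change, at 10.88 and 10.91 in H19-labelled cells and 9.90 and 9.96 in Igf2-labelled cells, a rise of 1.96-fold (log2 change 0.97, SE 0.07, adjusted p = 0.00178). Slc16a3 was 8.13 and 8.13 in H19-labelled cells and 7.43 and 7.07 in Igf2-labelled cells, a rise of 1.84-fold (log2 change 0.88, adjusted p = 0.00571). This rests on 1 dim probe, at 166.4 to 378.9 units across the arrays. Slc2a1 rose by 0.34 (adjusted p = 0.0227). Both transporter genes of the set were thus among the 8 that were higher in H19-labelled cells.

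Pgk1 stood at 8.25 and 8.03 in H19-labelled cells and 7.51 and 7.74 in Igf2-labelled cells and rose by 0.52 (adjusted p = 0.0334). Its only tested probe was dim, at 230.9 to 406.4 units across the arrays. Pfkl rose by 0.29 (adjusted p = 0.0339). Pdk1 was 12.30 and 12.28 in H19-labelled cells and 11.88 and 11.87 in Igf2-labelled cells, a rise of 0.41 (adjusted p = 0.0129). Egln1 rose by 0.60 (SE 0.10, adjusted p = 0.0103) and Adm by 0.60 (SE 0.09, adjusted p = 0.00864), and in both genes the groups did not overlap. Against parthenogenetic cells, H19-labelled cells changed by -0.12 for Egln1, -0.07 for Adm and -0.04 for Pdk1, and none of these passed. The other Egln1 probes were 0.33 and 0.21 higher and did not pass (adjusted p = 0.11 and 0.411). Egln3, P4ha1, P4ha2, Ndrg1 and Vegfa changed by -0.16 to 0.13 and did not pass. Ldha missed the threshold at 0.29 (adjusted p = 0.054) and Higd1a at 0.52 (adjusted p = 0.064), and Ddit4 changed by 0.33 (adjusted p = 0.164). Hk1, Pfkp, Pfkm, Aldoa, Pgam1, Pkm and Pfkfb4 changed by 0.07 to 0.21 and did not pass, and for Pfkfb3, which Igf2-labelled cells did not show above background, no change is given. The median of the 24 genes off chromosome 6 was 0.25, beside 0.026 over all genes. Without H19-labelled replicate 2 or Igf2-labelled replicate 2 the count was 3, without Igf2-labelled replicate 1 it was 4, and without H19-labelled replicate 1 it was 6. These are 10.7% to 21.4% of the 28 genes, in fits in which 9.26% to 11.3% of all probes passed. With the normal arrays in the fit 0 genes and 0.201% of all probes passed. Aldoc and Slc16a3 passed whichever 1 of the 6 arrays was left out. Fibroblast markers were lower in H19-labelled cells for 28 of 28 genes. Of these, 25 passed the threshold (89.3%, beside 13% of all genes lower), and their part was not tested.

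The genes on chromosome 6 are given apart because genes of that chromosome were higher as a group in both modified lines. Of the 443 genes measured there, 40% rose in Igf2-labelled cells and 56.7% in H19-labelled cells against parthenogenetic cells, where 3.58% and 13.4% of the genes of other chromosomes did. The median change on chromosome 6 was 0.32 in Igf2-labelled and 0.41 in H19-labelled cells, beside -0.022 and 0.0044 on the other chromosomes. A change of a single gene on chromosome 6 and this shift cannot be told apart in these comparisons.

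Hk2 encodes the hexokinase that phosphorylates glucose at the mitochondrial surface. Its log2 intensity was 14.63 and 14.69 on the Igf2-labelled arrays, 14.86 and 14.87 on the H19-labelled arrays, 14.25 and 14.21 on the parthenogenetic arrays, and 14.16 and 13.96 on the normal arrays. All 4 modified arrays were above all others, and Hk2 rose by 0.43 in Igf2-labelled cells (SE 0.07, adjusted p = 0.0185) and by 0.64 in H19-labelled cells (SE 0.07, adjusted p = 0.00143). These changes lie at the 65.2 and 75.4 percentiles of chromosome 6 genes. The H19-labelled call was kept in 12 of 12 alternative settings and without any 1 of the 6 arrays.

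Eno2, the neuronal enolase, was 9.37 and 9.55 in Igf2-labelled cells, 9.57 and 9.40 in H19-labelled cells, 8.97 and 8.83 in parthenogenetic cells, and 8.88 and 8.30 in normal cells. It rose by 0.56 in Igf2-labelled cells (adjusted p = 0.0258) and by 0.59 in H19-labelled cells (adjusted p = 0.00739), at the 82.8 and 70.7 percentiles of the chromosome. Tpi1, the triose phosphate isomerase, was 15.31 and 15.22 in Igf2-labelled cells, 15.43 and 15.43 in H19-labelled cells, 15.20 and 15.09 in parthenogenetic cells, and 14.92 and 14.13 in normal cells. It changed by 0.11 in Igf2-labelled cells (adjusted p = 0.421) and rose by 0.28 in H19-labelled cells (adjusted p = 0.0369). A dimmer Tpi1 probe rose by more, 0.57 in Igf2-labelled cells (adjusted p = 0.0158) and 0.81 in H19-labelled cells (adjusted p = 0.00134), while another changed by 0.05 in Igf2-labelled cells (adjusted p = 0.727) and rose by 0.30 in H19-labelled cells (adjusted p = 0.025). The probes of this gene thus give different sizes.

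Gapdh, the dehydrogenase often used as a reference gene, read 15.95 to 15.98 on all 8 arrays by its brightest probe. Its intensity of 60617 to 66306 units lay close to the brightest probe of each array, at 64070 to 67905 units, so this probe has little room to show a rise. The dimmer Gapdh probe was 15.73 and 15.70 in Igf2-labelled cells, 15.80 and 15.78 in H19-labelled cells, 15.67 and 15.59 in parthenogenetic cells, and 15.66 and 15.46 in normal cells. Its changes against parthenogenetic cells were 0.09 in Igf2-labelled cells (adjusted p = 0.501) and 0.16 in H19-labelled cells (adjusted p = 0.141). Between the modified lines 0 of these 4 genes passed, and the median over chromosome 6 was 0.05.

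**Figure D2:**
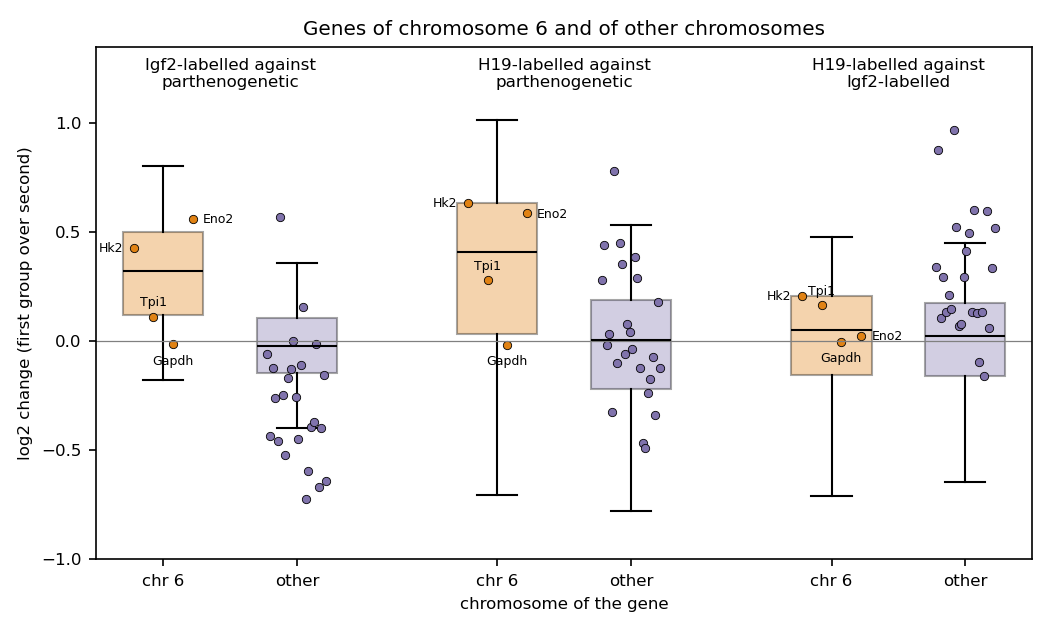
Log2 changes in 3 comparisons for the 4 genes of the set on chromosome 6 (orange points, named) and the 24 on other chromosomes (purple points), over boxes for all genes of chromosome 6 and of other chromosomes; boxes span the quartiles, the line is the median and whiskers leave out 5% of genes at each end. Hk2 and Eno2 lie in the upper part of the raised chromosome 6 distribution in both modified lines, and the purple points of Igf2-labelled cells centre on -0.26.

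Against normal ES cells the results turn on which normal array is read. Normal replicate 2 was the lowest of the 8 arrays for 24 of the 28 genes (85.7%), where it was the lowest for 25.4% of all genes. It was below normal replicate 1 for 26 of the 28 genes, beside 4008 of all 8733 genes. The median difference was -0.66 for the 28 genes and 0.047 over all genes. The 9 hypoxia response genes were lower on it in 9 of 9 cases, with a median of -1.65. Egln1 was 6.20 on normal replicate 2 and 8.08 on normal replicate 1. Vegfa was 10.64 on normal replicate 2 and 12.35 on normal replicate 1, and Ndrg1 was 9.97 on normal replicate 2 and 11.74 on normal replicate 1. Egln3 was 10.53 on normal replicate 2 and 12.14 on normal replicate 1, and Slc2a1 was 13.28 on normal replicate 2 and 14.22 on normal replicate 1. The median gap between replicates over the 28 genes was 0.078 in the Igf2-labelled, 0.054 in the H19-labelled, 0.047 in the parthenogenetic and 0.66 in the normal group. Pfkm and Pfkfb3 were the exceptions, higher on normal replicate 2 by 0.29 and 0.44.

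Other lists also differed between the normal arrays, where 4008 of all 8733 genes were lower on normal replicate 2. All 28 fibroblast markers were lower on normal replicate 2, with a median of -1.37, and 7 of 7 endoderm markers were higher, with a median of 0.87. Pluripotency markers were higher on it for 11 of 17, while 4 of 6 neural and 4 of 5 trophoblast markers were lower. Genes of the citric acid cycle were higher on it for 13 of 15 and of oxidative phosphorylation for 24 of 32. Among other hypoxia-induced genes 22 of 25 were lower on it, at a median difference of -0.58. The 11 other glycolysis genes went the opposite way to the glycolysis genes of the set, with 8 of 11 higher on normal replicate 2 and a median difference of 0.24, while of the 14 HIF pathway regulators 7 were higher and 7 lower on it. The part of these markers in the difference was not tested.

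With both normal arrays, 0 of the 28 genes passed for parthenogenetic against normal ES cells in limma, where 0.0687% of all genes passed. An unadjusted p under 0.05 was reached by 11 of them (39.3%), all higher, and by 11.0% of all probes. The count was 21 (75%, beside 40.2% of all probes) when normal replicate 1 was left out and 0 (beside 0.874% of all probes) when normal replicate 2 was. Such a fit holds 1 normal array, takes its spread from the other groups and assumes that the normal array varies like them, although the normal pair differed by more than any other pair. For Igf2-labelled against normal ES cells 0 passed, beside 1.03% of all genes, and 6 (21.4%) had an unadjusted p under 0.05, beside 15.8% of all probes. Without normal replicate 1 the count was 23 (82.1%, beside 41% of all probes), and without normal replicate 2 it was 4 (14.3%, beside 7.01%). A gene's direction could turn with the array, since Egln3 was 0.37 higher in Igf2-labelled than in normal cells with both normal arrays and 0.43 lower (log2 change -0.43) without normal replicate 2.

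For H19-labelled against normal ES cells 3 genes passed, all higher, beside 4.97% of all genes, 2.75% of them higher. Hk2 rose by 0.80 (SE 0.11, adjusted p = 0.0144). Genes of chromosome 6 were shifted here too, with 16.3% higher past the threshold, beside 2.03% on other chromosomes. Their median changes were 0.36 and -0.022, and the change of Hk2 and this shift cannot be told apart. Pfkp was 13.39 and 13.20 in H19-labelled cells, against 12.20 and 11.42 in normal cells, and rose by 1.48 (SE 0.24, adjusted p = 0.0218). Aldoc was 10.88 and 10.91 in H19-labelled cells, against 10.14 and 9.45 in normal cells, and rose by 1.11 (SE 0.21, adjusted p = 0.0344). In Hk2, Pfkp and Aldoc both H19-labelled arrays lay above both normal arrays. Leaving out normal replicate 1 gave 24 genes (85.7%, beside 30.5% of all probes), and normal replicate 2 gave 10 (35.7%, beside 30.6%). Either Igf2-labelled array left out gave 1 gene (3.57%, beside 1.92% of all probes), and either H19-labelled or parthenogenetic array gave 0, beside 0.278% to 1.64% of all probes. A fit of these groups alone gave 0 genes and 0 probes. P4ha1 turned its direction, at 0.28 with both normal arrays and -0.54 without normal replicate 2.

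**Figure D3:**
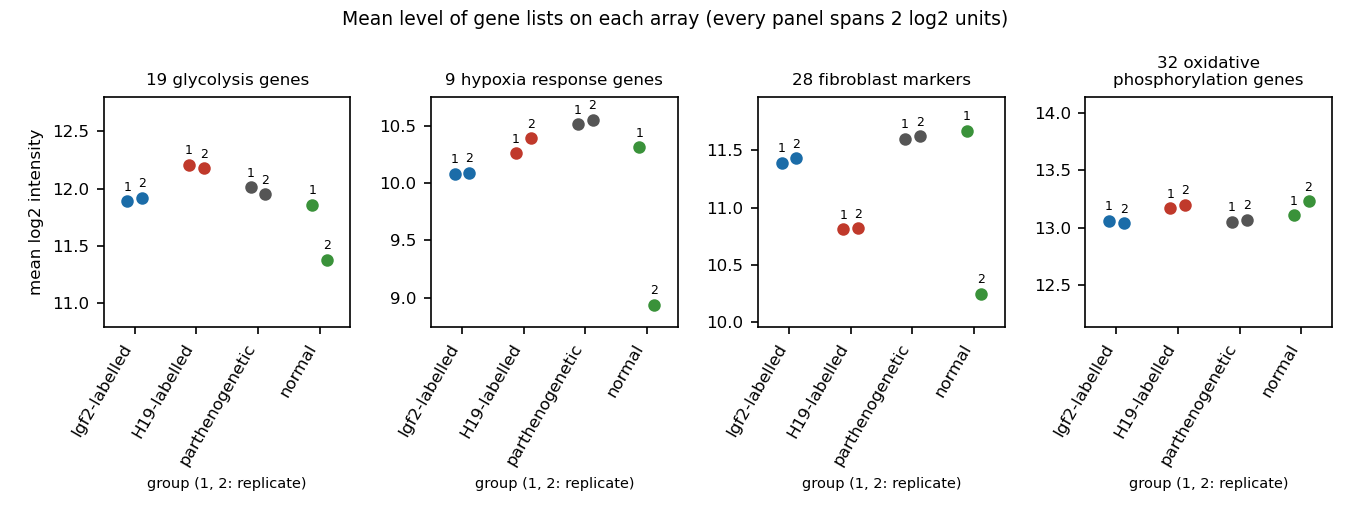
Mean log2 intensity of 4 gene lists on each array, numbered by replicate; every panel spans 2 log2 units. The 19 glycolysis genes are at 12.21 and 12.18 in H19-labelled cells and 11.89 and 11.92 in Igf2-labelled cells, the 9 hypoxia response genes are at 10.08 and 10.09 in Igf2-labelled cells and 10.51 and 10.55 in parthenogenetic cells, and normal replicate 2 is low for these lists and for the fibroblast markers but not for oxidative phosphorylation.

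Companion lists of the same pathways were read in the same fits, against the same shares of all genes: 9.73% passed in Igf2-labelled cells (5.43% higher, 4.31% lower) and 33.8% in H19-labelled cells (15.6% higher, 18.2% lower). Of 14 regulators of the HIF pathway, 1 rose and 1 fell in Igf2-labelled cells and 2 rose and 3 fell in H19-labelled cells against parthenogenetic cells, with medians of -0.0018 and 0.11. These are 14.3% and 35.7% of the list, near the shares of all genes. Epas1, which encodes a HIF alpha subunit, was 8.40 and 8.40 in Igf2-labelled cells, 8.90 and 8.92 in H19-labelled cells, 7.49 and 7.40 in parthenogenetic cells, and 7.63 and 8.35 in normal cells. It rose by 0.95 in Igf2-labelled cells (SE 0.07, adjusted p = 0.0022) and by 1.46 in H19-labelled cells (SE 0.07, adjusted p = 3.07e-04), and neither line overlapped the parthenogenetic arrays. Vhl, the chromosome 6 gene of the ubiquitin ligase that degrades HIF alpha subunits, rose by 0.73 in H19-labelled cells (adjusted p = 0.00523). Its partner Eloc fell by 0.53 in Igf2-labelled cells (adjusted p = 0.0363) and by 0.41 in H19-labelled cells (adjusted p = 0.0316). The HIF coactivator gene Ep300 and Cited2, another regulator of the pathway, fell by 0.39 and 0.49 in H19-labelled cells (adjusted p = 0.0219 and 0.0445).

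Of 25 other hypoxia-induced genes, 1 rose and 5 fell in Igf2-labelled cells, and 6 rose and 7 fell in H19-labelled cells, with medians of -0.022 and -0.021. These are 24% of the list in Igf2-labelled cells and 52% in H19-labelled cells, beside 9.73% and 33.8% of all genes, with falls and rises nearly equal in number in H19-labelled cells. Pgf, a growth factor gene of the VEGF family, fell by 0.77 in Igf2-labelled cells (adjusted p = 0.0314) and by 0.55 in H19-labelled cells (adjusted p = 0.0362). Car9, a membrane carbonic anhydrase and widely used hypoxia marker, fell by 0.58 in Igf2-labelled cells (adjusted p = 0.0374). The endothelin gene Edn1 fell by 0.59 in H19-labelled cells (adjusted p = 0.00871). Among the rises, the mitochondrial adenylate kinase gene Ak4 rose by 0.84 in H19-labelled cells (adjusted p = 0.00101), and the histone demethylase gene Kdm3a, on chromosome 6, rose by 0.64 in Igf2-labelled and 0.59 in H19-labelled cells (adjusted p = 0.024 and 0.0106).

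Of 11 other glycolysis genes, 2 rose and 3 fell in Igf2-labelled cells, and 7 rose and 1 fell in H19-labelled cells, with medians of 0.021 and 0.36. The called genes are 45.5% of the list in Igf2-labelled cells and 72.7% in H19-labelled cells, beside 9.73% and 33.8% of all genes. The glucose transporter gene Slc2a3, on chromosome 6, was 15.29 and 15.31 in Igf2-labelled cells, 15.46 and 15.42 in H19-labelled cells, 14.73 and 14.67 in parthenogenetic cells, and 14.89 and 14.58 in normal cells. It rose by 0.60 in Igf2-labelled cells (adjusted p = 0.00744) and by 0.74 in H19-labelled cells (adjusted p = 9.22e-04). The related transporter gene Slc2a8 rose by 0.44 in Igf2-labelled cells (adjusted p = 0.0272) and by 0.88 in H19-labelled cells (adjusted p = 9.17e-04). Ldhc, the testis form of lactate dehydrogenase, fell by 0.63 in Igf2-labelled cells (adjusted p = 0.018) and rose by 0.60 in H19-labelled cells (adjusted p = 0.00621).

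Mitochondrial pathways were read in the same way. Of 32 genes of oxidative phosphorylation, 2 rose in Igf2-labelled cells and 5 in H19-labelled cells, 0 fell, and each of those called lies on chromosome 6. At 6.25% and 15.6% of the list, these shares lie under the 9.73% and 33.8% of all genes. The largest rise in H19-labelled cells was that of Cycs, the cytochrome c gene, at 0.69 (adjusted p = 0.0306). Of 15 genes of the citric acid cycle, 2 rose in Igf2-labelled cells (13.3%), and 3 rose and 1 fell in H19-labelled cells (26.7%). Of 9 genes of pyruvate entry into mitochondria, 1 rose in Igf2-labelled cells (11.1%), and 2 rose and 1 fell in H19-labelled cells (33.3%), and the shares of both lists lie near those of all genes. Pcx, the pyruvate carboxylase gene, rose by 0.50 in each line (adjusted p = 0.0258 in Igf2-labelled and 0.00869 in H19-labelled cells). Of 5 pentose phosphate genes, 1 rose in Igf2-labelled cells (20%), and 1 rose and 2 fell in H19-labelled cells (60%). Rpia, an isomerase gene of that pathway on chromosome 6, rose by 0.48 in Igf2-labelled cells (adjusted p = 0.0146) and 0.56 in H19-labelled cells (adjusted p = 0.00235).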

How the data were processed

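RNA of 8 samples, 2 in each of 4 groups taken from the sample titles, was hybridised to Illumina arrays. The authors deposited un-normalized intensity values per probe, each with a detection p-value per the file headers, and a log2 table of 12690 probes whose arrays share a median of 9.55, as deposited. The sources used here do not give the scanner software or the authors' normalization tool. The lowest intensity was 52.07 units, and every sample column was assigned (0 left over). For the values used here, intensities of all 8 arrays were background-corrected and quantile-normalized with neqc (offset 16, controls inferred from the detection p-values) in limma 3.58.1 under R 4.3.3.

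Probes detected (p under 0.05) by both arrays of some group, 12932 in all, were fitted with lmFit and eBayes, with Benjamini-Hochberg adjustment over all of them. Comparisons without the normal group used 6 arrays, those with it all 8, which averages the wide normal pair with closer pairs and understates its error. Probes were named from the platform annotation (997 tested probes had no name) and placed on chromosomes through RefSeq. The number of arrays limits the precision. The members, lists, tests and alternatives were chosen with earlier results of these data known. All 33 members are named, and from other lists at most 3 rises and 3 falls among the largest past the threshold. The fit was tested on simulated data. Alternatives covered background, normalization, filter, the authors' table, samples in the fit, prior, block, weights, probe choice and left-out arrays. Same-numbered arrays deviated together with correlations of -0.026 to 0.17, so the numbers were not taken as pairs.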

Additional observations from a re-analysis of the deposited data

How the results depend on the processing

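The counts given are of the 28 genes past the threshold. For Igf2-labelled against parthenogenetic cells the count of 10 was 0 with all 8 arrays in the fit, 16 with a trended and robust prior, and 0 to 9 with 1 array left out. For H19-labelled against parthenogenetic cells the 13 were 8 without a detection filter, 1 with all 8 arrays, and 5 to 10 with 1 array left out. For H19-labelled against Igf2-labelled cells the 8 were 0 with all 8 arrays, 14 with the trended prior, and 3 to 7 with 1 array left out. Adding the normal arrays brings the spread of the normal pair into the fit, and leaving out arrays leaves fewer degrees of freedom. For parthenogenetic against normal cells the 0 became 0 to 21 with 1 array left out. For Igf2-labelled against normal cells the 0 became 1 with no background correction and with normexp, 2 with the authors' table and with the trended prior, and 0 to 23 with 1 array left out. For H19-labelled against normal cells the 3 became 5 with no background correction, normexp or the trended prior, 6 with the authors' table, 0 with these groups alone or with array weights, and 0 to 24 with 1 array left out. The cause of the other shifts was not tested. With the replicate number as a block the counts, in the order given, were 10, 11, 7, 0, 0 and 3. Leaving out arrays of the remaining group in the 6-array fits was added after the data were seen. Over single genes, 2710 of the results under alternatives kept their direction and side of the threshold, 173 lost and 136 gained a call, 63 moved and 2 turned round: without normal replicate 2, Egln3 was -0.43 for Igf2-labelled against normal cells (adjusted p = 0.0469, range over alternatives 4.1e-04 to 0.929, changes of -0.43 to 1.17 with 1 array left out) and P4ha1 was -0.54 for H19-labelled against normal cells (adjusted p = 0.0304, range 0.00317 to 0.972, changes of -0.54 to 1.11). Most single-gene results had no call in the main fit, so the 2710 that kept their side of the threshold say little about the calls. Many of the calls were lost with 1 array left out. Probes near the top of the intensity scale, such as that of Gapdh, limit what a rise can show. Probes near background, such as those of Pfkfb3, Slc16a3 and Pgk1, may understate changes.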
